A study of Mus musculus with 4 samples.

Results

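The 35 genes described here encode the proteins that build, dock and fuse synaptic vesicles, the vesicles that store transmitter in nerve endings. They were chosen by name, as vesicle membrane proteins and synapsins (*Syp*, *Synpr*, *Syngr1*, *Sv2a*, *Sv2b*, *Sv2c*, *Syn1*, *Syn2*, *Syn3*), SNARE proteins (*Snap25*, *Stx1a*, *Vamp1*, *Vamp2*), Rab3 proteins, complexins and active zone proteins (*Rab3a*, *Rab3c*, *Cplx1*, *Cplx2*, *Unc13a*, *Rims1*), and 16 synaptotagmins. Of the 35, 34 could be named on the arrays, among 32575 genes or identifiers in all. *Syt5* was not matched to a probe, since no accession on the arrays led to that name, and is not analysed here.

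The organs, spinal cord and duodenum, came from male mice 20 weeks old. The WT mice were littermates of the IP6K2-KO mice, which lack exon 6 of the gene for inositol hexakisphosphate kinase 2, an enzyme that makes the pyrophosphate IP7. Both genotypes ate a purified diet for 1 week and were then fasted for 48 h. Each of the 4 combinations of genotype and organ was hybridized to 1 array, so there is no replicate of any group, no test was made, and precision is limited by how few arrays there are. The organs were whole tissue, in which neurons are a part of the cells, and in such RNA fewer cells of a type and less RNA per cell cannot be told apart.

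At a nerve ending, vesicles filled with transmitter are held by synapsins, brought to the membrane by Rab3, RIM and Munc13 proteins, and fused when the SNARE proteins of vesicle and plasma membrane zip together. Complexins hold the assembled SNAREs ready, and synaptotagmins, which carry a pair of C2 domains, serve in several family members as the calcium sensors that start fusion. Endocrine and exocrine cells of the gut use the same machinery or close relatives of it to release hormones and enzymes.

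Promoter sequence was read from RefSeq on GRCm38.p6, as 300 bases from 250 before to 50 after each transcription start. Of the 35 genes, 26 had an entry, with 38 starts between them. The stretches below belong to *Syt10* and *Syp*, which differed most between the genotypes, and to *Syn1* and *Unc13a*, whose windows hold a half-site of RE1, the element bound by the neuronal repressor REST. Capitals mark matches, on either strand, to the GC box GGGCGG, to the left and right half-sites of RE1 (TTCAGCACC and GGACAGCG) and to the cyclic AMP response element TGACGTCA, and all are written 5′ to 3′ along the gene.
*Syt10*, minus strand of chr15:89841861-89842010, the 150 bases before the start: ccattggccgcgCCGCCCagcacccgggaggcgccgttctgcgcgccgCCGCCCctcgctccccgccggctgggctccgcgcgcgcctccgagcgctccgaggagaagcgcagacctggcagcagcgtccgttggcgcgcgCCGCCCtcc
*Syp*, plus strand of chrX:7638430-7638579, the 150 bases before the start: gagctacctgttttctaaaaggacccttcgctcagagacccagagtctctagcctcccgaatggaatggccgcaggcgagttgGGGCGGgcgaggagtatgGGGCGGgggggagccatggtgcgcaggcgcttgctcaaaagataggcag
*Syn1*, minus strand of chrX:20921059-20921168, from 250 bases before the start: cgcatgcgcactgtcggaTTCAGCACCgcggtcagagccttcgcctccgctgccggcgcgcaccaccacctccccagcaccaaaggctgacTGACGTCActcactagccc
*Unc13a*, minus strand of chr8:71671727-71671751, just after the start: CGCTGTCCgcgcccccGGTGCTGAA

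The stretch of *Syt10* held 3 GC boxes and that of *Syp* held 2. A GC box lay in a window of 22 of the 26 genes and at 25 of their 38 starts (65.8%), against 35.7% of all 32851 starts in the RefSeq table. *Cplx2*, *Syn1*, *Syt3* and *Syt8* had none in these windows. The left half-site of RE1 was found in *Syn1* and *Unc13a* (5.26% of the genes' starts, 0.371% of all starts) and the right half-site in *Syt6* and *Unc13a* (7.89% and 1.26%). *Unc13a* was thus the gene with exact matches to both, in the stretch printed above, where the 2 half-sites do not overlap. Their spacing was not compared with that of a whole RE1. Half-sites that differ by any letter were not looked for, in *Syn1* or elsewhere. The cyclic AMP response element was found in *Syn1* alone (2.63% of the genes' starts, 1.79% of all starts). These are matches of letters, not sites of binding.

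The values below are processed signals, the scanner's intensity after background subtraction, and log2 differences between arrays that were each scaled to their own 75th percentile. That percentile was 905 and 972 on the WT and labelled KO spinal cord arrays, and 68.0 and 323 on the WT and labelled KO duodenum arrays. A probe counts as measured where the scanner software called its spot well above background. This held for 76.8% and 77.4% of the 39418 probes on the WT and labelled KO spinal cord arrays, and for 51.6% and 66.3% on the duodenum arrays, so the WT duodenum array measured the fewest genes. A technical SD, estimated from 399 probes that were each spotted 10 times on every array, holds the spread between spots. It holds none between mice and none between probes of a gene. Of the members, 22 had 1 probe, among them *Syp*, *Syt10*, *Vamp1*, *Syn1* and *Syt1*. Where only 1 array of a pair measured a gene, the difference is a bound, taken against the higher of the probe's own signal on the other array and the dimmest measured probe there. For *Ip6k2* itself the spinal cord signals were 452 in WT and 1320 in the labelled KO, a difference of 1.45, and the duodenum signals 139 and 572, a difference of −0.21. Where this probe lies relative to exon 6 is not given in the sources used here, so its values cannot check the genotypes either way. The arrays are therefore called labelled KO throughout.

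All 34 genes were well above background in the WT spinal cord, and 33 in the labelled KO spinal cord, where *Syt8* was not. In the WT duodenum 16 were (47.1%, against 51.8% of all genes), and in the labelled KO duodenum 24 (70.6%, against 65.6%). The 16 genes measured on both duodenum arrays were *Syp*, *Syn1*, *Syn2*, *Snap25*, *Vamp1*, *Vamp2*, *Rab3a*, *Rab3c*, *Cplx2*, *Rims1*, *Syt3*, *Syt6*, *Syt10*, *Syt11*, *Syt13* and *Syt15*. *Syngr1*, *Sv2a*, *Stx1a*, *Cplx1*, *Syt1*, *Syt8*, *Syt9* and *Syt16* were measured only on the labelled KO duodenum array, the brighter of the 2. The remaining 10 (*Synpr*, *Sv2b*, *Sv2c*, *Syn3*, *Unc13a*, *Syt2*, *Syt4*, *Syt7*, *Syt12* and *Syt17*) were not well above background on either duodenum array, and no genotype difference is given for them there. The labelled organs were checked against markers by their summed signal, in units of the 75th percentile of the array. The 8 neuronal markers summed to 247 and 239 on the WT and labelled KO spinal cord arrays and to 1.59 and 1.37 on the duodenum arrays. The 8 markers of small intestinal epithelium, a list chosen after the other values were seen, summed to 1.41 and 1.54 on the spinal cord and 2582 and 1336 on the duodenum arrays. Each list was thus highest on the arrays of its organ.

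**Figure D1:**
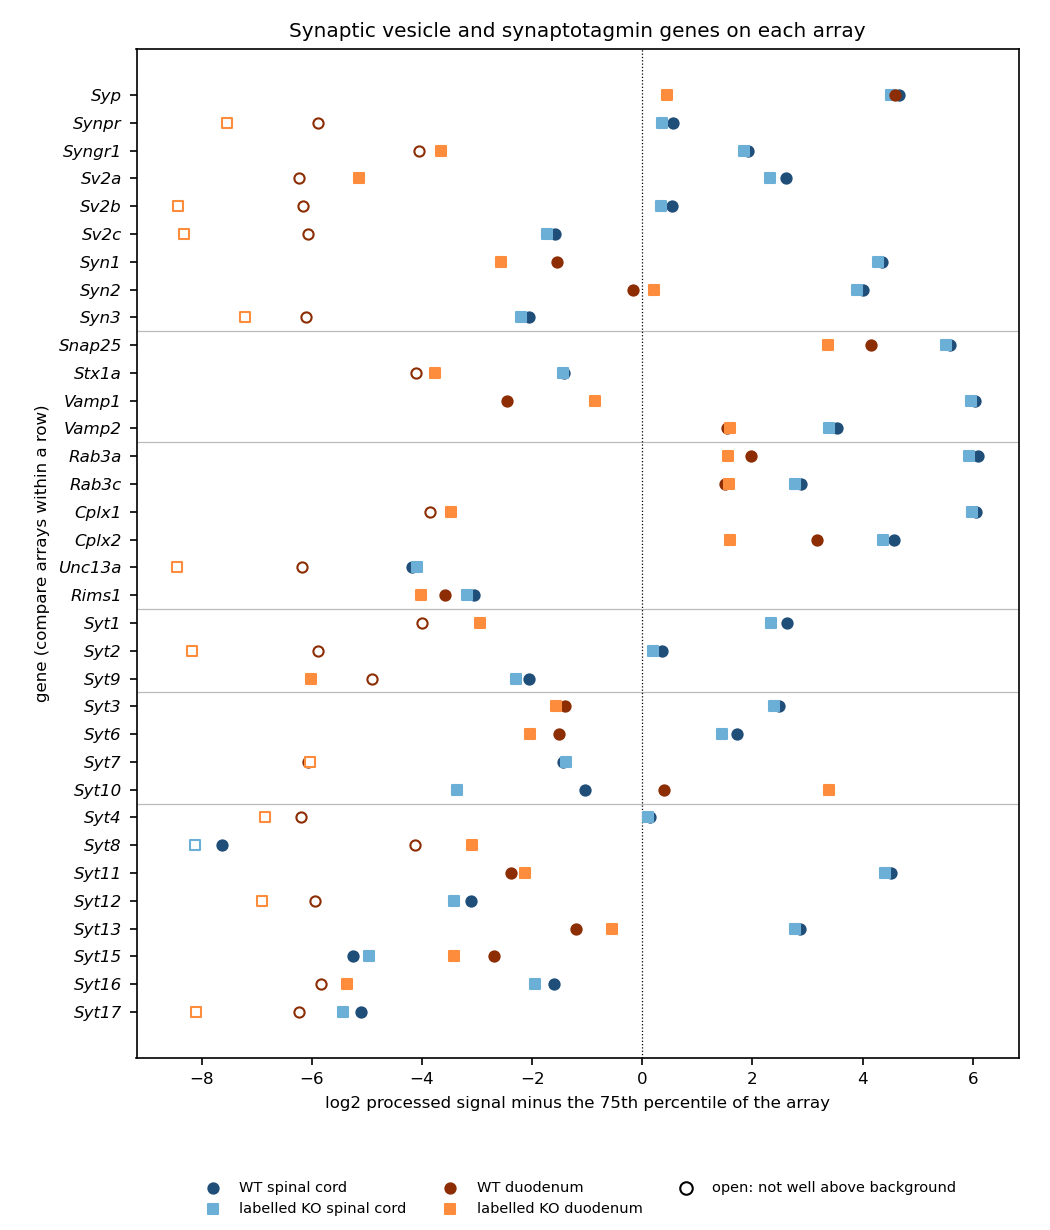
Level of each of the 34 genes on the 4 arrays, as log2 processed signal minus the 75th percentile of the array, with open symbols where the probe was not well above background. The 2 spinal cord symbols of a gene lie almost on each other except for *Syt10*. Among genes measured on both duodenum arrays, *Syp*, *Cplx2*, *Syn1*, *Vamp1* and *Syt10* lie at least 2-fold apart there. Gaps that involve open symbols are not measured differences. Levels can be compared along a line and not between genes.

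In the spinal cord, the genes of the synaptic vesicle were close between the genotypes, as were most genes, and *Syt10* was the exception among them. All genes measured on both arrays had an interquartile range of −0.16 to 0.098. None of the 34 members was at least 2-fold higher on the labelled KO array, where 2.28% of all genes were. At least 2-fold lower was 1 member, where 0.868% of all genes were. Both counts are to be read against those shares. The other members measured on both arrays differed by −0.33 to 0.31 on the log2 scale. Of the 33, 30 lay below 0, as did 58.9% of all genes, and 28 lay below the median of all genes. Their median difference was −0.15, against −0.039 for the 24165 genes measured on both arrays, and the median technical SD of a difference was 0.058. With normexp, another way to subtract the local background, 7 members were at least 2-fold lower, and the members' median lay above that of all genes by 0.48 instead of below it. Where the local backgrounds that the scanner software flagged were replaced before that correction, the count was 1 and the median minus that of all genes was −0.073. Values given with normexp are without that replacement.

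*Syt10*, a calcium sensor known from the release of insulin-like growth factor 1 by olfactory bulb neurons and the gene of the first promoter stretch above, gave a signal of 438 on the WT and 94.8 on the labelled KO spinal cord array. The difference was −2.31 (technical SD 0.0801), or 4.96-fold lower on the labelled KO array. Only 3 of the 24165 genes had a lower value. The value ranged from −2.48 to −1.86 over the other normalizations and background corrections.

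All 9 vesicle membrane proteins and synapsins lay below 0, as did 58.9% of all genes, with a median of −0.15 and a range of −0.30 to −0.080. *Sv2a*, the vesicle glycoprotein that binds the drug levetiracetam, was at the low end, at 5540 on the WT and 4839 on the labelled KO array. The 4 SNARE genes had a median of −0.083, from −0.16 for *Vamp2* to −0.017 for *Stx1a*. The 6 genes of Rab3, complexins and the active zone had a median of −0.12. Among them only *Unc13a*, the Munc13 protein that primes vesicles, was above 0, at signals of 49.7 and 56.7, a difference of 0.088 that is smaller than its technical SD of 0.117 and was −1.63 with normexp.

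The synaptotagmins of the spinal cord lay in the same narrow range, *Syt10* apart. The 3 fast sensors of transmitter release, *Syt1*, *Syt2* and *Syt9*, had a median of −0.23. *Syt1*, the main sensor of forebrain synapses, had the lowest value of the 3, with 5618 on the WT and 4885 on the labelled KO array and a difference of −0.30 (technical SD 0.0580), which was 0.054 with normexp. *Syt7*, a slow sensor of high calcium affinity, was at 332 and 371, a difference of 0.059 that is within its technical SD of 0.0634 and was −0.39 with normexp.

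Of the synaptotagmins with weak or no calcium binding, 6 of 7 measured on both arrays lay below 0, as did 58.9% of all genes. Among the 6, *Syt4*, whose gene is switched on by activity, was at −0.037. *Syt12* was at 105 on the WT and 91.3 on the labelled KO array (−0.30), and *Syt16*, which lacks a membrane anchor, was at 296 and 253 (−0.33). *Syt17* was dim on both, at 26.1 and 22.4 (−0.32, technical SD 0.137). With normexp *Syt12*, *Syt16* and *Syt17* were at −1.49, −0.91 and −2.05, and where flagged backgrounds were replaced at −0.26, −0.31 and −0.078. *Syt15* had the highest difference of all members, 0.31 (technical SD 0.134), at signals of 23.6 and 31.4, and was below 0, at −2.0, with normexp, and at 0.031 where flagged backgrounds were replaced. *Syt8*, known outside the nervous system, was barely above background on the WT array at 4.58, so that its bound is at least 1.15-fold lower on the labelled KO array.

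Markers of other cell types differed between the 2 spinal cord arrays. The summed signal of 8 skeletal muscle markers, in units of the 75th percentile, was 28.0 on the WT and 91.3 on the labelled KO array, with 7 and 8 of 8 well above background, *Mylpf* not so on the WT array. Most of the WT sum was *Pvalb*, a calcium buffer that neurons also make and that differed by 0.23, while the median difference of the 7 markers measured on both arrays was 4.02. The 8 markers of Schwann cells and peripheral nerve summed to 46.2 and 69.9, with 7 and 8 of 8 above background (*Pmp2* below it on the WT array) and a median difference of 2.52. Most of that WT sum was *Mal*, which differed by −0.0064, and *Cdh19* differed by 0.18. The 6 red blood cell markers used, all above background, summed to 228 and 351, with a median difference of 1.18. The 8 neuronal markers, all above background on both, summed to 247 and 239, and their median difference was −0.057. The 6 motor neuron markers that could be named, also all above background, summed to 19.7 and 19.6, with a median difference of 0.0042. Thus most muscle, nerve sheath and blood markers were higher on the labelled KO array while neuronal markers were within 2-fold, and the part of either in the value of *Syt10* was not tested.

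**Figure D2:**
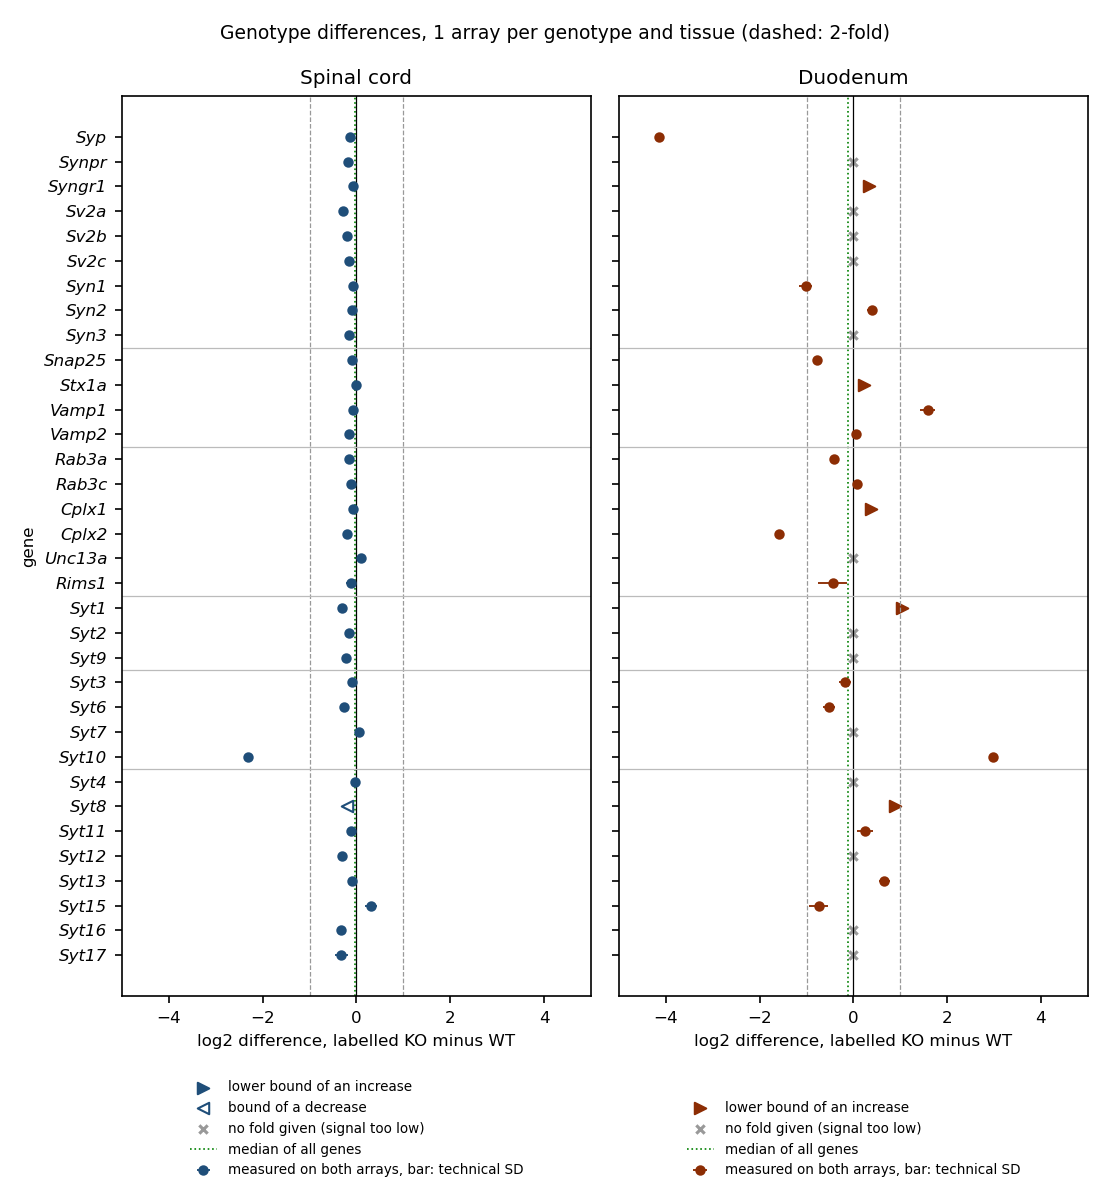
Log2 difference between the labelled KO and the WT array for each gene in the spinal cord (left) and the duodenum (right). Circles were measured on both arrays with bars of 1 technical SD, triangles are bounds, and crosses at 0 mark genes for which no fold is given. In the spinal cord only *Syt10* passes the dashed 2-fold lines, and in the duodenum *Syp*, *Cplx2* and *Syn1* lie beyond the lower line and *Syt10*, *Vamp1* and *Syt1* beyond the upper one.

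In the duodenum, 3 genes were at least 2-fold higher (*Syt10*, *Vamp1*, *Syt1*) and 3 at least 2-fold lower (*Syp*, *Cplx2*, *Syn1*) on the labelled KO array, of the 24 well above background on 1 or both arrays. Among all genes 7.17% were that much higher and 11.9% that much lower. The median of the 16 genes measured on both arrays was −0.30, against −0.12 for 16812 genes, with a median technical SD of 0.102. Taken as the mean of each gene's probes, the members' median was above that of all genes by 0.14, so its side depended on the choice of probe. The 3 of 24 in each direction are to be read against those shares. The counts also depended on the processing, with 22 higher and 1 lower when the arrays were scaled on spiked-in control RNA, and 1 higher and 5 lower with either normexp correction, under which no value could be given for *Syt1*.

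*Syp* encodes synaptophysin, a main membrane protein of synaptic vesicles that is also made by endocrine cells. Its signal was 1642 on the WT and 443 on the labelled KO duodenum array, although the labelled KO array was the brighter of the 2 as a whole. After scaling the difference of its 1 probe was −4.14 (technical SD 0.0675), 17.6-fold lower on the labelled KO array. Only 10 of the 16812 genes had a lower value. It was between −4.11 and −3.43 under quantile normalization, median centring, both normexp corrections and the deposited table, and −1.13 where arrays were scaled on spiked-in control RNA. On the spinal cord arrays the same probe gave 22861 and 22171, a difference of −0.15.

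*Syn1*, a synapsin that tethers vesicles to the cytoskeleton and whose promoter stretch above holds an RE1 half-site and the cyclic AMP response element, had 23.1 on the WT and 54.4 on the labelled KO duodenum array, a difference of −1.01 (technical SD 0.137), or −0.90 relative to the median gene. *Syn2*, a second synapsin, was on the other side, with 60.4 and 376 and a difference of 0.39. The 2 synapsins therefore lay on opposite sides of 0, and only that of *Syn1* exceeded 2-fold. *Syngr1*, a relative of synaptophysin, was measured only on the labelled KO array at 25.6, a bound of at least 1.25-fold higher. Its second probe, measured on both arrays, differed by −0.22. For *Sv2a* (0.908 and 9.17, not well above background on the WT array) the bound was under 1, and no fold is given.

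Of the SNARE genes, *Snap25*, which encodes a plasma membrane SNARE, gave 1210 on the WT and 3344 on the labelled KO duodenum array, a difference of −0.78 (technical SD 0.0665) that was −0.16 with normexp. *Vamp1*, a vesicle SNARE prominent in spinal cord, gave 12.4 and 177, a difference of 1.58 (technical SD 0.158) or 2.99-fold higher on the labelled KO array. The WT signal of *Vamp1* was low, and with normexp the difference was 0.23. *Vamp2*, the vesicle SNARE of most synapses, was at 197 and 974, a difference of 0.056 that is within its technical SD of 0.0753. *Stx1a* was measured on the labelled KO array only. The 4 SNARE genes thus held 1 past 2-fold, and those measured on both arrays did not share a side of 0.

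*Cplx2*, a complexin, was represented by 4 probes that differed among themselves. The probe used for the gene gave 613 on the WT and 973 on the labelled KO duodenum array, a difference of −1.58 (technical SD 0.0692), and the others differed by −1.11, 0.77 and −1.96. The probe with the positive difference gave 46.8 and 380. On the spinal cord arrays the 4 probes lay between −0.22 and −0.16. *Rab3a*, the GTPase of synaptic vesicles, gave 267 and 948 (−0.42). The 3 probes of *Rab3c* differed by 0.080, −0.081 and 0.91, so that 1 probe of this gene, too, stood apart from the rest. *Rims1*, an active zone scaffold, gave 5.69 and 19.9 (−0.44, technical SD 0.309), and *Cplx1* was measured on the labelled KO array only.

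**Figure D3:**
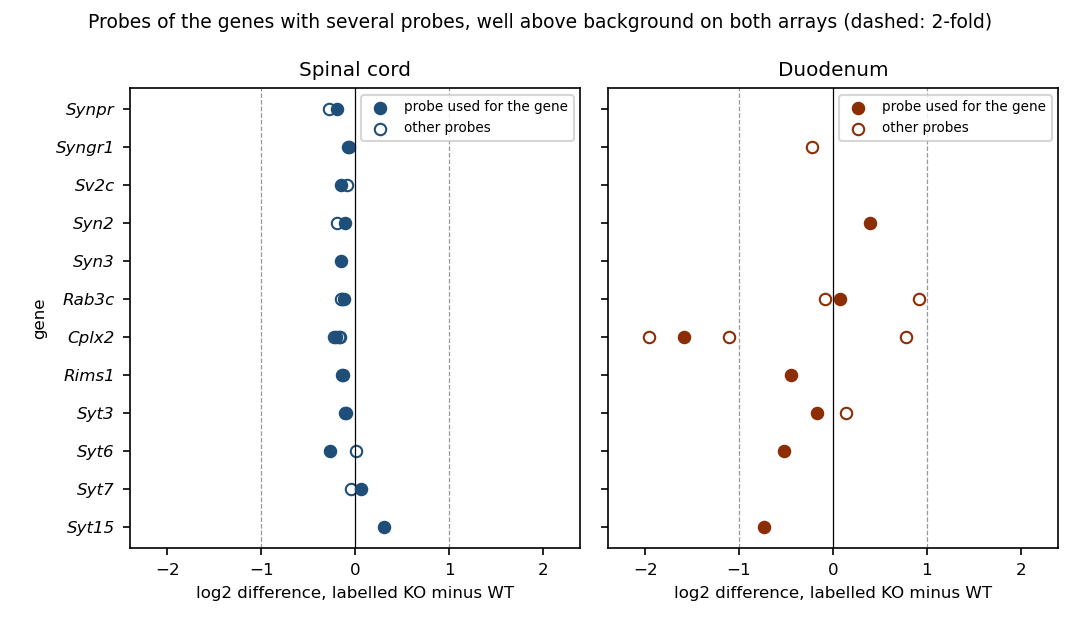
Log2 difference, labelled KO minus WT, of every probe well above background on both arrays for the 12 genes with several probes, in the spinal cord (left) and the duodenum (right). Filled circles are the probe used for the gene and open circles the others. In the spinal cord the 4 probes of *Cplx2* lie between −0.22 and −0.16, while in the duodenum they span −1.96 to 0.77.

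Among the synaptotagmins of the duodenum, *Syt10* stood highest. The signal of its 1 probe was 89.3 on the WT and 3366 on the labelled KO array. This was a difference of 2.99 (technical SD 0.0842), 7.93-fold higher on the labelled KO array. Only 6 of the 16812 genes had a higher value. It was 2.82 to 6.0 over the other normalizations and background corrections.

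*Syt1*, not well above background on the WT duodenum array, gave 41.8 on the labelled KO array, a bound of at least 2.05-fold higher. *Syt8* was measured on the labelled KO array only, at 38.0, at least 1.86-fold higher. For *Syt9* and *Syt16* the bound was under 1. None of the fast sensors was therefore measured on both duodenum arrays.

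*Syt13*, which binds no calcium and is known from endocrine cells, gave 29.4 on the WT and 221 on the labelled KO duodenum array, a difference of 0.66 (technical SD 0.112) that was 0.13 with normexp. *Syt11*, which also lacks calcium binding, gave 13.04 and 73.5, a difference of 0.25 that was −0.81 with normexp. *Syt15* gave 10.6 and 30.1 (−0.74, technical SD 0.204). *Syt3* and *Syt6*, calcium-binding relatives of *Syt10*, differed by −0.17 and −0.52, both within 2-fold, although the second probe of *Syt3* was above 0, at 0.14.

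Between the duodenum arrays the scaling moved all genes together. Scaled on the spiked-in control probes, the median gene of the duodenum differed by 2.89, and *Cplx2* and *Syn1* were then at 1.42 and 1.99, above 0. Relative to the median gene, that scaling leaves each value as it was, at −4.02 for *Syp*, −1.47 for *Cplx2*, 1.70 for *Vamp1* and 3.10 for *Syt10*. The sides of *Syp* and *Syt10* did not depend on it.

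Markers of pancreas and blood differed between the duodenum arrays, and those of enteric neurons were within 2-fold. Enteric neuron markers summed to 1.86 on the WT and 1.497 on the labelled KO array, with 6 of 8 well above background on each (*Nos1* and *Gfra1* were not), and a median difference of −0.14. Neuronal markers summed to 1.59 and 1.37, with 5 and 7 of 8 above background (*Nefm* on neither, *Map2* and *Nefl* only on the labelled KO array). No marker of either list measured on both arrays was 2-fold apart. The 6 motor neuron markers that could be named summed to 1.59 and 0.893, with 2 and 6 above background (*Chat*, *Slc5a7*, *Isl1* and *Lhx3* only on the labelled KO array). The 2 measured on both arrays were *Prph*, also an enteric neuron marker (−0.74), and *Slc18a3* (−1.30), which was past 2-fold. The 8 pancreatic islet markers summed to 25.4 and 68.1, with 6 and 8 above background (*G6pc2* and *Slc30a8* below it on the WT array) and a median difference of 1.41, and the 8 enteroendocrine markers to 114 and 131, with 7 and 8 above it (*Neurod1* below it on the WT array) and a median difference of 0.67. Acinar markers, all 8 above background on both, summed to 10119 and 3571 (median difference −1.21). Those of red blood cells, all 6 above background on both, summed to 1532 and 88.3 (median difference −3.39). The medians of islet and enteroendocrine markers were on the same side as *Syt10* and *Syt13*, though *Cck* was at −0.39. So were those of Schwann cell (0.61, with *Pmp22* at −2.53) and astrocyte markers (0.33). Those of acinar, red blood cell and motor neuron markers were on that of *Syp*, though the acinar *Ptf1a* was at 0.43. Also on that side were the medians of neuronal (−0.18), enteric neuron, skeletal muscle (−0.71) and oligodendrocyte markers (−0.17). The same held for small intestinal epithelium (−0.19), the 1 sensory neuron marker measured on both arrays (−0.24) and all genes (−0.12). The part of any of them in these values was not tested.

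*Syt10* was the member with 2-fold genotype differences on opposite sides in the 2 organs, −2.31 in the spinal cord and 2.99 in the duodenum. The 2 differences were 5.30 apart. The other 15 genes measured on all 4 arrays had no such pair of 2-fold differences, and 62 of 16185 genes (0.383%) had one. With 1 array per group the difference between the tissues was not tested.

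**Figure D4:**
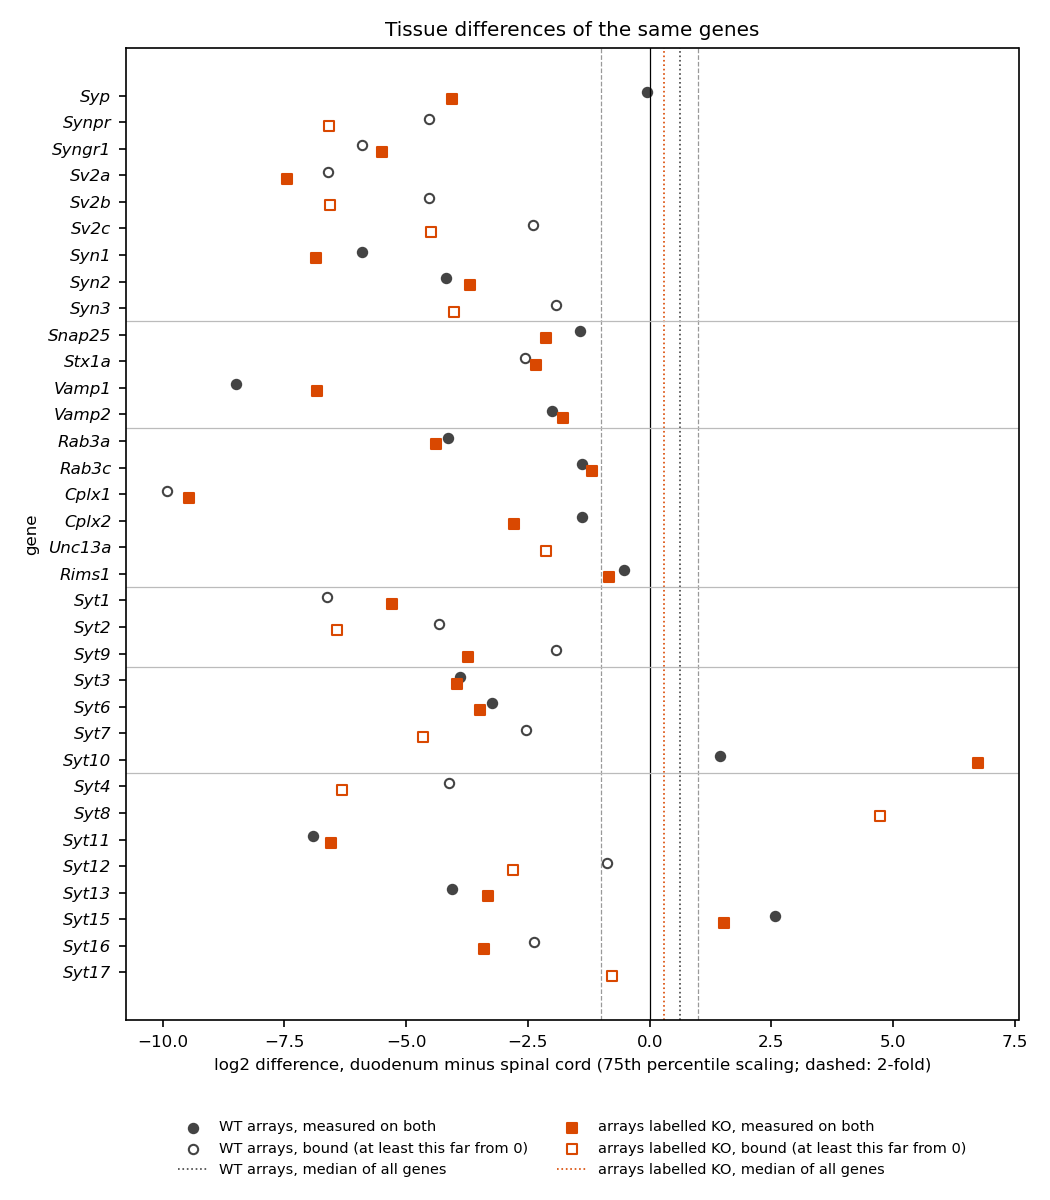
Log2 difference between duodenum and spinal cord for each gene, on the WT arrays (black circles) and on the arrays labelled KO (orange squares), with open symbols for bounds. Nearly all symbols lie left of the median of all genes (dotted), those of *Syt10*, *Syt15* and *Syt8* lie right of it, and *Syp* is near 0 only on the WT arrays. Where 0 falls depends on the scaling between organs.

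Set against the spinal cord, most of these genes were lower in the duodenum in both genotypes. On the WT arrays 26 of 34 were at least 2-fold lower, where 23.1% of all genes were, and 2 at least 2-fold higher, where 30.2% were. On the arrays labelled KO, 29 were at least 2-fold lower, against 25.4% of all genes, and 3 at least 2-fold higher, against 30.3%. The median of those measured on both arrays was −2.62 for WT and −3.69 for KO, against 0.63 and 0.30 for all genes. The scalings shift all genes between organs by different amounts, but under each setting tried the members' median minus that of all genes was −2.56 or lower on the WT arrays and −3.79 or lower on those labelled KO.

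The lowest difference on the arrays labelled KO was that of *Cplx1*, and on the WT arrays, among genes measured on both, that of *Vamp1*. *Cplx1*, the complexin of fast synapses in hindbrain and spinal cord, gave signals of 60298, 61293, 4.68 and 28.9 on the WT spinal cord, labelled KO spinal cord, WT duodenum and labelled KO duodenum arrays, and was 704-fold lower in the labelled KO duodenum than in the spinal cord of that label. *Vamp1*, in the same order of arrays, gave 59591, 60551, 12.4 and 177, a tissue difference of −8.49 on the WT arrays and −6.83 on those labelled KO. *Syt11* gave 20775, 20699, 13.04 and 73.5 (−6.90 and −6.55). Each of the 3 was far lower on both duodenum arrays than on either spinal cord array.

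*Syn1*, in the same order, gave 18512, 18784, 23.1 and 54.4, with tissue differences of −5.91 and −6.84. *Sv2a* gave 5540, 4839, 0.908 and 9.17, a bound of at least 96.9-fold lower in the WT duodenum and a difference of −7.45 for the arrays labelled KO. *Rab3a* gave 62204, 59428, 267 and 948 (−4.13 and −4.38). Its tissue difference was smaller than those of *Syn1* and *Sv2a*. *Snap25* (−1.44 and −2.14), *Vamp2* (−2.003 and −1.79) and *Rab3c* (−1.39 and −1.19) were closer still between the organs.

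*Syp* differed by −0.065 between the WT arrays and by −4.06 between those labelled KO, or −0.69 and −4.35 relative to the median gene. On the WT arrays its scaled levels thus lay about 1 technical SD (0.0640) apart. The signals behind them were 22861 in the spinal cord and 1642 in the duodenum. *Rims1* was within 2-fold on both pairs (−0.52 and −0.84), but past it relative to the median gene (−1.15 and −1.14). How near to 0 these values of *Syp* and *Rims1* lay depends on the scaling between organs, as it does for the next genes. *Syt10* and *Syt15* were above 0 on both, *Syt10* at 1.44 and 6.74 and *Syt15* at 2.58 and 1.53. With quantile normalization within each tissue or scaling on the spiked-in probes, the WT value of *Syt10* (−1.23 and −3.60) and both values of *Syt15* were below 0, while relative to the median gene *Syt10* was 0.81 and 6.44. *Syt8* was at least 26.6-fold higher in the labelled KO duodenum than in the spinal cord.

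The wider pathway was read from 56 related genes. On the spinal cord arrays 55 of them were measured, and their median difference was −0.058. None was at least 2-fold higher, where 2.28% of all genes were, or at least 2-fold lower, where 0.868% were. That count is to be read against those shares. The lowest was *Slc17a7*, a vesicular glutamate transporter, with signals of 15.5 and 8.89 (−0.90), which was −1.07, past 2-fold, with scaling on the spiked-in probes, −2.30 with normexp and −0.20 with normexp where flagged backgrounds were replaced. It was followed by *Rims3* (−0.43, −1.67 with normexp) and *Doc2a* (−0.38, −0.14 with normexp). The highest were *Rab3d*, the Rab3 protein of exocrine granules (0.48, −0.69 with normexp), *Syngr2* (0.36, 0.58 with normexp) and *Vamp8*, a SNARE of secretory cells outside the nervous system (0.28). Without the 9 non-neuronal SNARE factors the median was −0.088, and for those 9 it was 0.064. The medians of members and of related neuronal genes lay below 0, as did that of all genes, at −0.039.

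In the duodenum 40 of the 56 were well above background on 1 or both arrays, of which 3 were at least 2-fold higher, where 7.17% of all genes were, and 3 at least 2-fold lower on the labelled KO array, where 11.9% were. Higher were *Snap29* (67.8 and 1028, 1.68, or 0.64 as the mean of its probes), a SNARE found in most cells, *Stx2* (at least 2.82-fold), a syntaxin of epithelia, and *Unc13b* (35.1 and 445, 1.42, 0.68 with normexp). *Slc18a2*, the vesicular monoamine transporter, was at 0.83, but at −0.88 with normexp and −0.65 as the mean of its probes. Lower were *Syngr3* (5.19 and 9.35, −1.40), *Slc18a3* (46.6 and 90.0, −1.30), the vesicular acetylcholine transporter of cholinergic neurons, and *Erc2* (54.1 and 124, −1.05), an active zone protein. Under scaling on the spiked-in probes these 3 were above 0. The median over the 32 related genes measured on both arrays was −0.17, near that of all genes.

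Between the organs, 31 of 55 related genes were at least 2-fold lower in the WT duodenum, where 23.1% of all genes were, and 7 at least 2-fold higher, where 30.2% were. In the labelled KO duodenum 30 were lower, against 25.4% of all genes, and 6 higher, against 30.3%. Among the genes measured on both arrays of a pair, the lowest on the WT arrays were *Cadps* (−7.35), which primes dense-core vesicles, *Napb* (−5.36) and *Slc18a3* (−3.96). On the arrays labelled KO they were *Cadps* (−7.76), *Amph* (−7.08) and *Stxbp5l* (−6.23), a tomosyn. Some genes measured in the spinal cord only had lower bounds still, such as *Slc32a1*, the transporter of inhibitory vesicles, at least 768-fold lower on the WT arrays and 3601-fold on those labelled KO. Highest on the WT arrays were *Rab3d* (4.38), *Syngr2* (4.11) and *Stxbp2* (3.69), a fusion factor of epithelial and immune cells, and on those labelled KO *Rab3d* (4.34), *Stxbp2* (3.74) and *Vamp8* (3.66). Under scaling on the spiked-in probes *Rab3d*, *Syngr2* and *Stxbp2* were below 0 on the WT arrays.

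**Figure D5:**
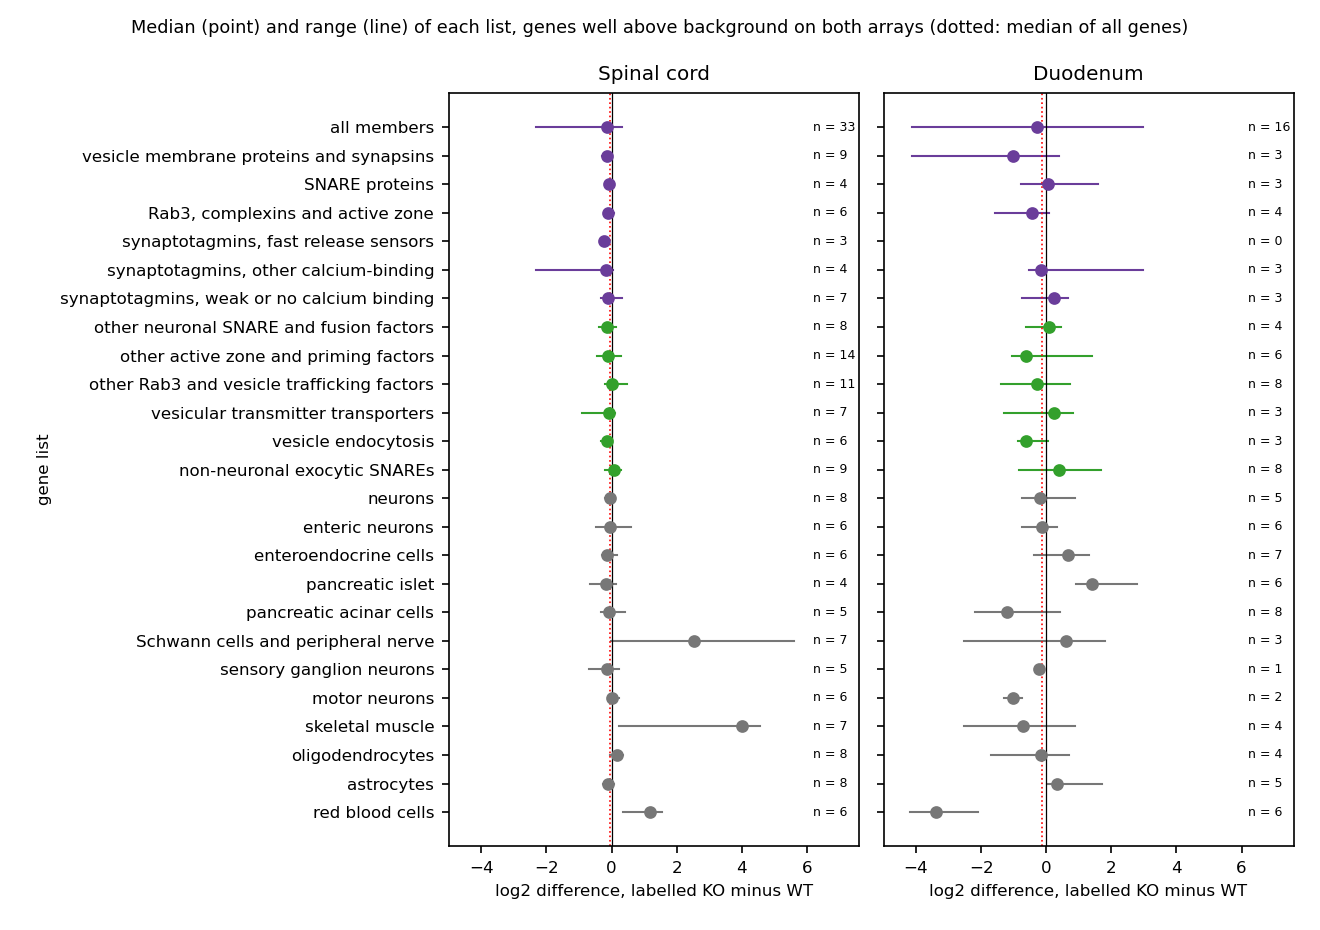
Median (point) and range (line) of the log2 difference, labelled KO minus WT, for the members by role (purple), related genes (green) and cell type markers (grey), over the genes of each list well above background on both arrays (n at the right), with the median of all genes dotted. In the spinal cord the lists of members lie close to 0 and those of muscle, Schwann cells and red blood cells to the right, and in the duodenum islet markers lie to the right and acinar and red blood cell markers to the left.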

How the data were processed

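Total RNA of 4 samples, 1 per genotype and organ, was labelled with Cy3 and hybridized to 1-colour Agilent mouse arrays on 1 slide. Per the file headers, the authors deposited Agilent Feature Extraction 11.5.1.1 output, whose processed signal is a spot intensity corrected for background and spatial trend, on an array design annotated to mm9. They also deposited a table of log2 values normalized by quantiles, used as an alternative. Spots flagged as outliers were left out (89 to 133 per array), and 0 probes were saturated. log2 of the processed signal minus the 75th percentile of the array was computed, with the brightest probe standing for a gene (Python 3.11.15, numpy 2.4.6, pandas 2.3.3, with limma 3.58.1 in R 4.3.3 for normexp, offset 50). Probes were named by RefSeq accession (GRCm38.p6), which matched 25864 of 26387. The functions that set differences and bounds were tested on simulated data.

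The technical SD of a gene was the median SD of the 50 replicated probes nearest in brightness. A gene counts as called at 2-fold, bounds included. Members past 2-fold between genotypes, or among the 5 largest differences each way in a comparison, are named, most with signals on the arrays compared. Related genes are named past 2-fold or among the 3 largest each way. The markers of small intestinal epithelium were added later. A few genes of the lists are not reported here and enter no list count. Members and lists were chosen with earlier results of these data known. Alternatives were 4 other normalizations, 2 normexp corrections, the authors' table, averaging all probes of a gene, 2 filters on dim probes and a 1.5-fold limit.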

Additional observations from a re-analysis of the deposited data

Results flagged for a closer look

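*Syt10* differed between the organs in the direction of its genotype difference. The labelled KO minus WT difference was −2.31 in the spinal cord and 2.99 in the duodenum, 5.30 apart on the log2 scale. Each organ had 1 array per genotype, so neither difference has a replicate, and the difference between the organs was not tested.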

How the results depend on the processing

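No paired analysis was possible because each group had 1 array, and no array was left out. Of the values for gene counts and medians, 93 kept their direction and moved little under the alternatives, 25 moved and 2 changed sign, and of those for single genes 185, 260 and 14 did. The cause of these shifts was not tested. The dim WT duodenum array limits the duodenum most.

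In the spinal cord, normexp background correction gave 7 members at least 2-fold lower, and the members' median minus that of all genes became 0.48.

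In the duodenum, the members at least 2-fold higher numbered 22 with scaling on spiked-in probes, where the median gene differed by 2.89, 1 with normexp and 1 with normexp and flagged local backgrounds replaced, 6 in the deposited table, 5 with no filter on dim probes and 5 at 1.5-fold. Those lower numbered 1 with spiked-in probes, 5 and 5 with the normexp corrections, 11 with no filter and 5 at 1.5-fold. With the mean of a gene's probes the members' median minus that of all genes became 0.14. With spiked-in probes *Cplx2* was at 1.42, *Syn1* at 1.99, *Erc2* at 1.95, *Slc18a3* at 1.71 and *Syngr3* at 1.61.

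Between the organs, the WT arrays had 0 members at least 2-fold higher with quantiles within each tissue, 0 with spiked-in probes and 0 with normexp, and 12 lower among those measured on both arrays. The WT median minus that of all genes was −3.50 with quantiles over 4 arrays, −2.56 with normexp, −3.51 in the deposited table and −4.32 with the mean of probes. For the arrays labelled KO it was −3.83 with quantiles over 4 arrays, −3.88 with quantiles within each tissue, −3.79 with either normexp correction and −3.83 in the deposited table. With quantiles within each tissue, *Syt10* was at −1.23 and *Syt15* at −0.11 on the WT arrays, and *Syt15* at −1.12 on those labelled KO. With spiked-in probes the WT values were −3.60 for *Syt10*, −2.46 for *Syt15*, −0.66 for *Rab3d*, −1.34 for *Stxbp2* and −0.93 for *Syngr2*, and *Syt15* was at −0.33 on the arrays labelled KO.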
